A study of Arabidopsis thaliana with 27 samples.

Results

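AT1G79620, which encodes a receptor-like kinase, and AT3G52900 were followed over 9 times while suspension-cultured cells of Arabidopsis thaliana formed tracheary elements. Both were chosen by gene identifier, as a pair named for co-expression in xylem. Each had 1 probe set of its own in the platform annotation. They are 2 of the 13284 genes with at least 1 such probe set. The cells were of a habituated Col-0 culture, grown for 7 days and moved into fresh medium with NAA, an auxin, at 6 µg/ml, BAP, a cytokinin, at 1 µg/ml and epibrassinolide, a brassinosteroid, at 4 µM. Sampling ran at 12 h intervals up to 96 h. It was done in 3 time-courses (A, B and C), giving 27 arrays and n = 3 at every time. The p-values of the linear model (limma) rest on the spread between arrays of the same time, pooled over the times. They do not take into account that arrays of the same time-course share a culture. According to the labels, cells divided at 0 h, had stopped dividing and begun to expand at 12 h and 24 h, and were differentiating without a secondary wall at 36 h and 48 h. Wall deposition began at 60 h, went on at 72 h and 84 h and was complete at 96 h, when the cells prepared to die. Cultures without the hormones were not analysed here, so a difference from 0 h holds the fresh medium and the hormones together.

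Tracheary elements are the hollow cells of xylem that carry water. They lay down cellulose, xylan and lignin on the inner face of the primary wall, in bands or in a layer that leaves out pits. The paths are set by cortical microtubules. The cells then die and empty themselves. Receptor-like kinases span the plasma membrane and pass signals from the wall and from outside the cell to the inside by phosphorylating other proteins. For AT3G52900 the reference tables used here give no function. It stands on a list of the DUF662 family, named for a domain of unknown function.

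Values are the authors' log2 signals after RMA and cannot be compared in height between probe sets. The signal was 12.3 at its highest, and the lowest value of every array was 0, so that changes near 0 are understated. Array medians lay between 0.85 and 1.00. For the GAPDH control, the signal at the 3′ end minus that at the 5′ end, which grows as RNA is lost from the 5′ end, reached 2.99 to 4.38 log2 units in B at 0 h and from 60 h onward. The remaining 22 arrays had 0.35 to 1.89. The 96 h array of time-course A also stood apart for both genes, as described below. In bulk samples, fewer differentiating cells and less RNA per cell cannot be told apart. Of 7 markers of dividing cells 4 were measured, namely AUR1, AUR2, AUR3 and PRL. Their mean log2 signal was 3.36 to 3.84 on the 0 h arrays and 1.45 to 1.75 on the 12 h arrays. It was 2.88 to 3.12 at 24 h, 3.16 to 3.67 at 36 h and 3.38 to 3.55 at 48 h. From 60 h onward it was 2.90 to 3.43, then 3.81 to 3.95 at 72 h, 3.42 to 4.04 at 84 h and 3.46 to 3.71 at 96 h. This mean joins genes that did not all move alike. At 24 h AUR1, AUR2 and AUR3 differed from 0 h by -1.24, -1.08 and -0.73 log2 units, but PRL by 0.67. The part of these markers in the results was not tested. Of 5 phloem markers none was measured.

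AT1G79620 was near the floor at first, and its signal was highest at 60 h. In A, B and C it stood at 0.39, 0.44 and 0.50 log2 units at 0 h, then at 0.40, 0.02 and 0.42 at 12 h. It stood at 0.64, 1.34 and 1.29 at 24 h and at 2.83, 1.51 and 1.39 at 36 h, so that every array of these times lay above all 0 h arrays. At 48 h, before the wall, it was at 4.58, 4.23 and 3.68, and at 60 h at 4.21, 6.49 and 6.01. It was then lower at 72 h (3.87, 4.38 and 3.73) and 84 h (2.19, 3.44 and 3.04). The 96 h arrays divided, with 3.93 in A against 0.87 in B and 1.15 in C. The highest array was that of 60 h in B and in C and that of 48 h in A.

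AT3G52900 was low up to 36 h, and its time mean was highest at 60 h. It stood at 1.36, 1.48 and 0.80 log2 units at 0 h in A, B and C, at 0.13, 0.83 and 0.97 at 12 h, at 1.17, 2.16 and 1.61 at 24 h, and at 1.53, 1.70 and 1.53 at 36 h. At 48 h all 3 arrays were higher than any earlier one (3.66, 3.68 and 3.27). The values were 4.47, 6.81 and 5.82 at 60 h, 4.39, 5.47 and 5.01 at 72 h, and 3.56, 5.21 and 4.36 at 84 h. At 96 h the array of A read 6.63, the highest of its time-course, against 3.14 in B and 2.55 in C. In B and C the highest array was again that of 60 h.

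**Figure D1:**
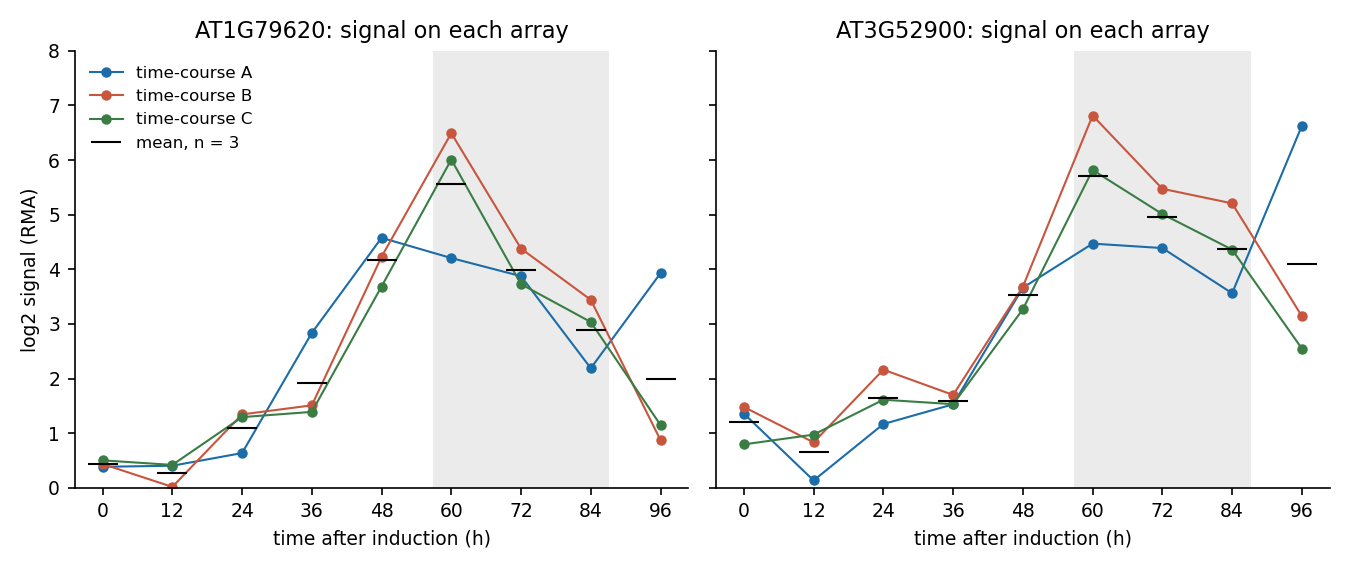
Log2 signal of AT1G79620 (left) and AT3G52900 (right) against time after induction in h, with a coloured line for each time-course, a black bar for the mean of 3 arrays and a grey band over the times at which the labels place wall deposition. Both genes are low up to 24 h, B and C are highest at 60 h, and the 96 h array of A lies above those of B and C.

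Both genes changed over the time-course by limma's moderated F test over all times (F = 17.1, adjusted p = 6.25e-06 for AT1G79620; F = 13.2, adjusted p = 3.72e-05 for AT3G52900), a test that 23.1% of the 22743 probe sets passed. The F test of both passed in all 27 fits that left out 1 array and in 8 other alternatives. All adjusted p below are limma's, with Benjamini-Hochberg adjustment over these 22743 probe sets, and values after ± are standard errors unless SD is written. A probe set with an adjusted p under 0.05 is said to be called.

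In order of the time means, AT1G79620 ran 60 h (5.57 ± 1.20), 48 h (4.16 ± 0.45), 72 h (3.99 ± 0.34), 84 h (2.89 ± 0.64), 96 h (1.98 ± 1.69), 36 h (1.91 ± 0.80), 24 h (1.09 ± 0.40), 0 h (0.44 ± 0.06) and 12 h (0.28 ± 0.23) in log2 units (SD, n = 3). Of neighbours in this order, those that did not overlap were 72 h with 84 h, 36 h with 24 h and 24 h with 0 h. AT3G52900 ran 60 h (5.70 ± 1.18), 72 h (4.96 ± 0.54), 84 h (4.38 ± 0.82), 96 h (4.11 ± 2.20), 48 h (3.54 ± 0.23), 24 h (1.65 ± 0.50), 36 h (1.59 ± 0.10), 0 h (1.21 ± 0.37) and 12 h (0.65 ± 0.45). Here 48 h and 24 h did not overlap, 1.89 log2 units apart, nor did 36 h and 0 h, and the 5 highest times overlapped each with the next. The spread at 60 h and 96 h was several times that at the early times, while the fit uses 1 pooled spread, which gives a standard error of 0.62 for a difference of AT1G79620 and 0.72 for AT3G52900.

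At 12 h neither gene had moved away from 0 h by limma. AT1G79620 differed by -0.16 ± 0.62 log2 units (adjusted p = 0.948) and AT3G52900 by -0.56 ± 0.72 (adjusted p = 0.755), while 8.48% of probe sets were called up. The same held at 24 h, at which AT1G79620 stood 0.65 and AT3G52900 0.44 above 0 h (adjusted p = 0.618 and 0.807), beside 5.44% of probe sets called up. At 36 h AT1G79620 averaged 1.91 against 0.44 at 0 h, a difference of 1.47 ± 0.62 in the same direction in 3 of 3 time-courses (adjusted p = 0.137), and AT3G52900 averaged 1.59 against 1.21 (adjusted p = 0.819), with 5.97% of probe sets called up. Without the 96 h array of A, whose spread enters the pooled estimate, AT1G79620 was called at 36 h with the same difference (adjusted p = 0.0342).

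Both genes rose at 48 h, the last time before the wall. AT1G79620 averaged 4.16 against 0.44 at 0 h, higher by 3.72 ± 0.62 (adjusted p = 2.70e-04), and AT3G52900 averaged 3.54 against 1.21, higher by 2.33 ± 0.72 (adjusted p = 0.0369). The direction was the same in 3 of 3 time-courses for both, and 4.98% of probe sets were called up. The call of AT3G52900 was lost without any of the 6 arrays of 0 h and 48 h (adjusted p from 0.0626 without the 0 h array of A to 0.127 without the 0 h array of C), and also without time-course B (0.203). Both calls were made with the letter of the time-course as a block.

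At 60 h, when wall deposition began, both stood farthest above 0 h. AT1G79620 averaged 5.57 against 0.44 at 0 h, a rise of 5.13 ± 0.62 (adjusted p = 6.49e-06), and AT3G52900 averaged 5.70 against 1.21, a rise of 4.49 ± 0.72 (adjusted p = 1.54e-04). Among all probe sets, ordered from the highest difference down, these were the 25th and the 49th, and 5.36% were called up. Every 60 h array lay above every 0 h array for both. Both calls held in all 27 fits that left out 1 array and in 9 other alternatives, among them the fits without time-course B and with the GAPDH difference as a covariate.

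At the later times of wall deposition both genes were still called up. At 72 h AT1G79620 was higher than at 0 h by 3.55 ± 0.62 (adjusted p = 7.52e-04) and AT3G52900 by 3.75 ± 0.72 (adjusted p = 0.00181), with 2.35% of probe sets called up. At 84 h the rises were 2.45 ± 0.62 (adjusted p = 0.0183) and 3.17 ± 0.72 (adjusted p = 0.00844), with 2.17% called up. The 84 h call of AT1G79620 was lost without the 0 h array of B or C or the 84 h array of B or C (adjusted p from 0.0532 to 0.0862). Without time-course B both 84 h calls and the 72 h call of AT3G52900 were lost (adjusted p = 0.239, 0.169 and 0.0718), in fits with 2 arrays per time.

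At 96 h AT1G79620 averaged 1.98 against 0.44 at 0 h, a difference of 1.54 ± 0.62 that did not pass (adjusted p = 0.21) and was 0.57 without the 96 h array of A (adjusted p = 0.767). AT3G52900 averaged 4.11 against 1.21 and was called up by 2.89 ± 0.72 (adjusted p = 0.0198), 1 of the 1.49% of probe sets so called. That call rested on the 96 h array of A: without it the difference was 1.63 (adjusted p = 0.114). It was also lost without the 0 h array of C (adjusted p = 0.0892) and without time-course B (adjusted p = 0.102).

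**Figure D2:**
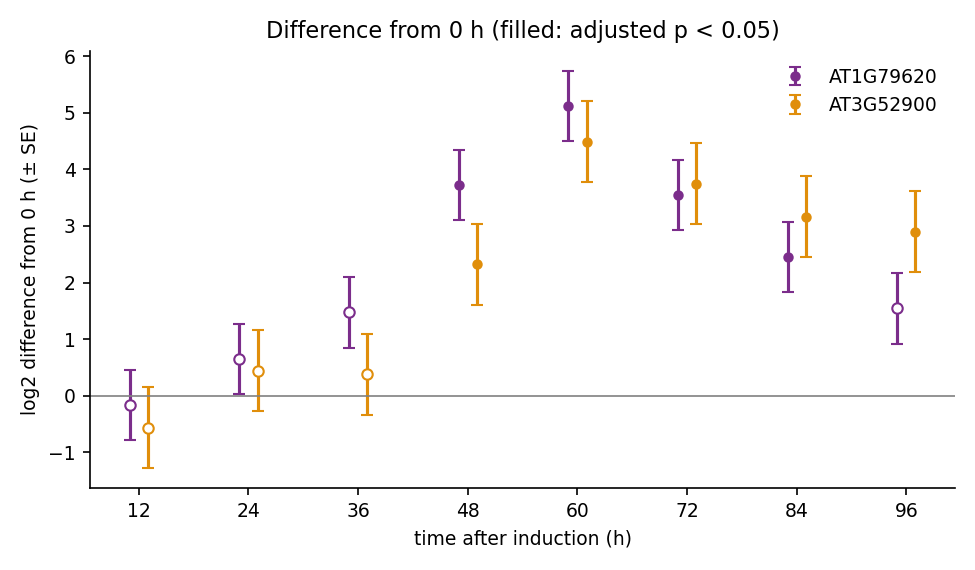
Log2 difference of each later time from 0 h (vertical, with SE bars from the fit to 27 arrays) against time after induction in h. Filled points have an adjusted p under 0.05: AT1G79620 is called at 48 h to 84 h and AT3G52900 at 48 h to 96 h, and both are highest at 60 h.

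Set against the pre-wall times, the wall times gave higher signals of both genes. Over 60 h, 72 h and 84 h AT1G79620 averaged 4.15 ± 1.36, against 2.39 ± 1.47 over 24 h, 36 h and 48 h (SD, n = 9 each), a rise of 1.76 ± 0.36 (adjusted p = 0.00417). AT3G52900 averaged 5.01 ± 0.96 over the wall times, against 2.26 ± 1.00 over the pre-wall times, a rise of 2.75 ± 0.41 (adjusted p = 1.97e-04). The arrays of these groups overlapped, since 48 h lies among the pre-wall times. The fit takes the arrays of each group as independent, although those of the same time-course share a culture. In A, B and C the rise of AT1G79620 was 0.74, 2.41 and 2.13, and that of AT3G52900 was 2.02, 3.32 and 2.93. In this comparison 2.7% of probe sets were called up and 3.61% down. Without time-course B the rise of AT1G79620 was 1.44 and was not called (adjusted p = 0.195), while AT3G52900 was still called (adjusted p = 0.0475).

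Across the single step into wall deposition neither gene was called. From the 48 h array to the 60 h array of the same time-course, AT1G79620 differed by -0.37 in A, 2.26 in B and 2.32 in C, and AT3G52900 by 0.81, 3.13 and 2.55. The mean differences were 1.41 ± 0.62 (adjusted p = 0.432) and 2.16 ± 0.72 (adjusted p = 0.303), and 0.00879% of probe sets were called up. The arrays of AT3G52900 at these times did not overlap, those of AT1G79620 did. Without the 96 h array of A, AT3G52900 was called with the same difference (adjusted p = 0.0336), and without the 60 h array of A its difference was 2.78. The 60 h array of B, with the highest reading of both genes, also had the largest GAPDH difference (4.38, against 1.77 in C and 0.36 in A). The part of RNA loss in the height of this array was not tested.

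At 96 h against 60 h, the end of wall deposition against its start, AT1G79620 was called down and AT3G52900 was not, and whether they differ was not tested for these times. AT1G79620 averaged 1.98 at 96 h against 5.57 at 60 h and fell by 3.59 (SE 0.62, adjusted p = 0.0029), the third lowest difference of 22743 probe sets, of which 0.875% were called down. Its 96 h arrays all lay below its 60 h arrays, with differences of -0.28 in A, -5.62 in B and -4.86 in C. AT3G52900 averaged 4.11 against 5.70 and was not called (-1.59 ± 0.72, adjusted p = 0.304), with differences of 2.16 in A, -3.67 in B and -3.27 in C. Without the 96 h array of A its difference was -2.85 and was called (adjusted p = 0.00135). The call of AT1G79620 held in all 27 fits that left out 1 array, and was lost when the 6 arrays of these times were fitted alone (adjusted p = 0.602) and without time-course B (-2.57, adjusted p = 0.391).

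How the genes differ from each other was read from changes in the difference of their signals on the same array. Such changes are understated or shifted where a gene is near the floor, as AT1G79620 was at 0 h and 12 h and, in B and C, at 96 h. AT1G79620 minus AT3G52900 averaged -0.77 ± 0.41 log2 units at 0 h, -0.37 ± 0.57 at 12 h, -0.56 ± 0.25 at 24 h, 0.32 ± 0.85 at 36 h and 0.63 ± 0.26 at 48 h (SD, n = 3). From there it was lower at each later time, at -0.13 ± 0.28 at 60 h, -0.96 ± 0.40 at 72 h, -1.49 ± 0.24 at 84 h and -2.12 ± 0.66 at 96 h. The 48 h arrays (0.42 to 0.91) lay above all arrays of 60 h and later (at most 0.19). The mean difference was thus highest at 48 h and lowest at 96 h, but the 36 h and 48 h arrays overlapped, and in A the highest was that of 36 h (1.31).

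Over the wall times the difference averaged -0.86 ± 0.65, against 0.13 ± 0.70 over the pre-wall times (SD, n = 9 each), a change of -0.99 (two-sided exact permutation test over arrays, p = 0.00769). The change was -0.85 to -1.09 when 1 time-course was left out (exact p from 0.0325 to 0.0455) and -0.99 after removing each time-course's mean (exact p = 0.0058). Arrays of 1 time-course share a culture, which this test does not take into account. It also takes arrays of different times as replicates. Within each phase the mean difference changed with time, from -0.56 at 24 h to 0.63 at 48 h and from -0.13 at 60 h to -1.49 at 84 h. Its p is therefore not a measure of the spread between time-courses. At 48 h against 0 h the difference changed by 1.40 (exact permutation p = 0.1, the smallest that 3 arrays against 3 can give). These 2 tests are not adjusted for each other, and at 0 h AT1G79620 lay near the floor.

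**Figure D3:**
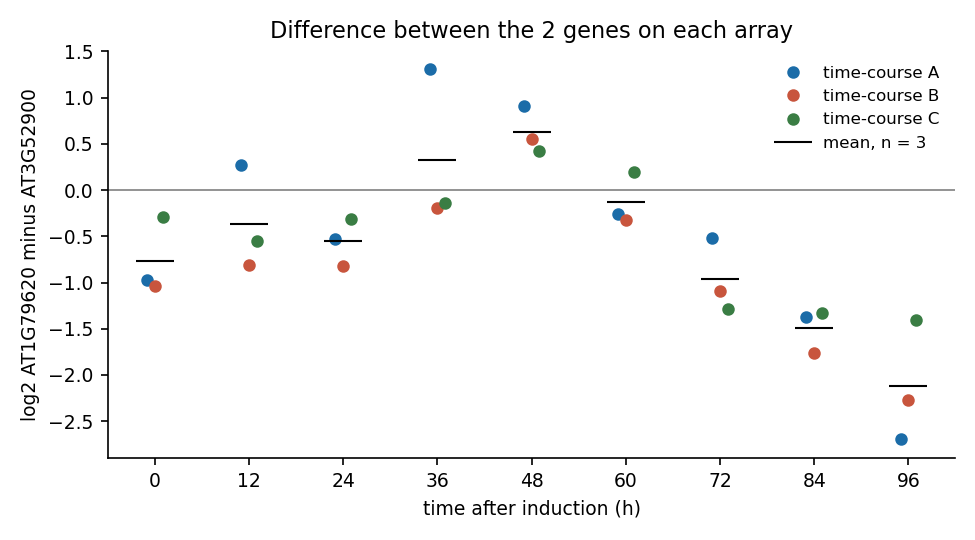
Difference between the log2 signals of AT1G79620 and AT3G52900 on each array (vertical) against time after induction in h, with a colour for each time-course and a black bar for the mean of 3 arrays. The mean is highest at 48 h (0.63) and lowest at 96 h (-2.12).

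The genes nevertheless tracked each other. Pearson's r between them was 0.884 over the 27 arrays (Spearman's rho 0.894), and over the 9 arrays of A, B and C it was 0.813, 0.925 and 0.935. Their deviations from the time means also ran together (r = 0.858, rho = 0.705 over 27 arrays), though less so without the 96 h arrays (r = 0.728) and without those of 60 h and 96 h (r = 0.512, rho = 0.486 over 21 arrays). These values describe the arrays, which share cultures and RNA, and carry no test. The pair was named for co-expression and chosen with earlier results of these data known, so a high r follows in part from the choice.

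A list of the LRR VIII-1 receptor kinases, written from general knowledge as the subfamily of AT1G79620, had all 8 genes measured. Of these 1, AT1G79620, was called up at 60 h and 0 down, where 5.36% of all probe sets were called up and 7.86% down, and the same 1 was called up in the wall against the pre-wall times (0 without time-course B). At 60 h the other 7 had an adjusted p of 0.564 or more by limma. The median of the 8 differences was 0.03 log2 units at 60 h, against 0.04 over all probe sets. The other 7 stayed under 2 log2 units on every array, with 1.75 as the highest value. AT1G06840 was the sole other gene with a called F test. It averaged 1.67 ± 0.10 at 12 h, against 0.81 ± 0.10 at 0 h (SD, n = 3), a rise of 0.86 ± 0.12 (adjusted p = 1.53e-05), and read 0.67 to 0.96 in the mean at all later times. AT5G49760, AT5G49770, AT5G49780, AT5G37450 and AT3G53590 had no array above 0.63 and AT5G01950 none above 1.58.

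Of the 9 genes on the DUF662 list, likewise from general knowledge, 6 were measured, and they had differing profiles. Membership of the LRR VIII-1 and DUF662 lists was not checked against an annotation, so some listed genes may belong to other families. AT2G27740 came closest to AT3G52900. It was at 0.40 or less on every array up to 36 h, at 2.04 (A), 1.38 (B) and 1.09 (C) at 48 h, then at 3.08, 3.15 and 3.40 at 60 h. At 60 h it had risen by 3.02 ± 0.70 against 0 h (adjusted p = 0.00509), and in the wall against the pre-wall times by 2.21 ± 0.40 (adjusted p = 0.0016). At 96 h it read 4.97 in A, 0.60 in B and 0.23 in C, the same split as for AT3G52900. Over the 27 arrays its r with AT3G52900 was 0.923.

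AT2G36410 moved at other times. It averaged 5.31 ± 0.20 at 12 h, against 3.63 ± 0.16 at 0 h (SD, n = 3), a rise of 1.68 ± 0.25 (adjusted p = 4.16e-05), and in the wall against the pre-wall times it fell by 1.02 (SE 0.14, adjusted p = 9.58e-05). AT3G52920 averaged 1.21 at 48 h against 3.91 at 0 h and fell by 2.70 (SE 0.70, adjusted p = 0.014), with the 60 h array of B (3.73) far above those of A (1.39) and C (0.90). AT5G03660 and AT1G53380 were called neither at 60 h against 0 h (-0.99 ± 0.43 and -0.54 ± 0.25) nor by the F test. At 60 h AT3G52920 differed from 0 h by -1.90 ± 0.70 (adjusted p = 0.0838). In all, limma called 2 of the 6 up and 0 down at 60 h, where 5.36% of all probe sets were called up and 7.86% down. In the wall against the pre-wall times 2 were called up and 1 down, where 2.7% of all probe sets were called up and 3.61% down. AT3G52900 itself is 1 of those called up in both. The list had medians of -0.26 and 0.33 log2 units, against 0.04 and -0.00 over all probe sets. Without time-course B the counts were 1 up and 1 down at 60 h, and 1 up in the wall against the pre-wall times.

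**Figure D4:**
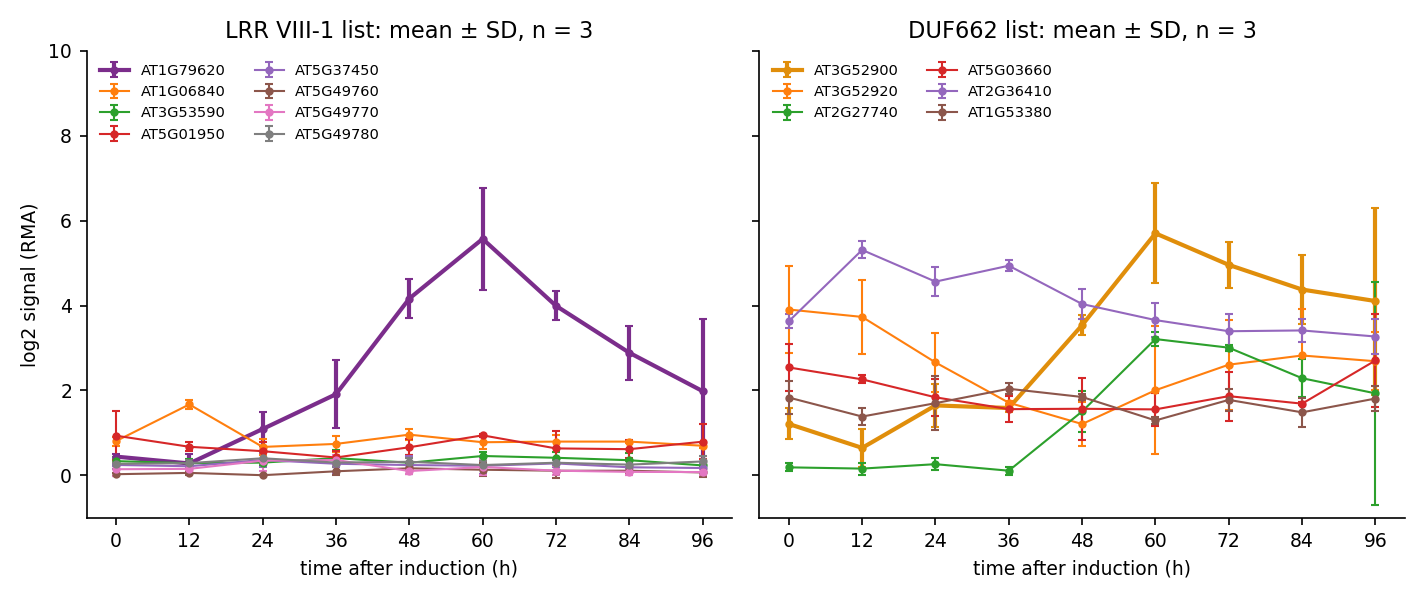
Mean log2 signal ± SD (n = 3) against time after induction in h for the 8 measured genes of the LRR VIII-1 list (left) and the 6 of the DUF662 list (right). AT1G79620 leaves the floor while the other 7 genes of its list stay under 2, and AT3G52900 and AT2G27740 share a profile that the other 4 genes of their list do not show.

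Among 5 measured receptor kinases of vascular tissue and wall sensing, at 60 h 1 was called up and 2 down, where 5.36% of all probe sets were called up and 7.86% down. PXL2 (AT4G28650), a relative of the vascular stem cell receptor PXY, averaged 2.05 at 60 h against 0.50 at 0 h, a rise of 1.56 ± 0.36 (adjusted p = 0.00507), in which C read 3.31 while A and B read 1.16 and 1.68. MOL1, which restrains the vascular cambium, fell by 1.67 (SE 0.43, adjusted p = 0.0107) and THE1, a monitor of wall integrity, by 1.37 (SE 0.39, adjusted p = 0.0235). BRL1, a brassinosteroid receptor of vascular cells, fell in the wall against the pre-wall times by 0.61 (SE 0.16, adjusted p = 0.0242), and PXL2 (0.44 ± 0.21) and MOL1 (-0.22 ± 0.25) were not called there.

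Of the lists for wall and cell death, few genes were measured. Not all of those were called in the wall against the pre-wall times. All 3 measured of 18 listed genes of secondary wall polysaccharides were called up in the wall against the pre-wall times, where 2.7% of probe sets were. IRX15 rose by 1.88 ± 0.26, IRX15-L by 1.45 ± 0.19 and IRX10 (listed as GUT2) by 1.42 ± 0.17, all of them genes of xylan synthesis. Against 0 h the list had 2 called up at 60 h, since IRX15-L was already high at 0 h (4.47). Of 6 measured genes on the list of lignin polymerisation 1 was called up in the wall against the pre-wall times (list median -0.03). It was the peroxidase gene AT5G51890 (4.49 ± 0.35, adjusted p = 6.73e-08), while PRX72 (0.52 ± 0.19) and PRX52 (-0.45 ± 0.36) were not called. Of 3 measured genes on the list of tracheary element cell death 1 was called, AT4G18425 (2.76 ± 0.58, adjusted p = 0.00542), and AT4G04460 (0.69 ± 0.29) and AT2G14095 (0.05 ± 0.10) were not. The sole measured xylem transcription factor of the list, the zinc finger gene C3H14 (AT1G66810), rose by 0.49 ± 0.14 (adjusted p = 0.0443). KINESIN-13A, which depolymerises microtubules at wall pits and was the sole measured gene of wall patterning, differed by 0.38 ± 0.18 (adjusted p = 0.236). At 60 h against 0 h, 3 of the 6 lignin genes, all 3 cell death genes and C3H14 were called up, and KINESIN-13A was not. There 5.36% of all probe sets were called up. Over the 27 arrays the 12 measured genes of wall polysaccharides, lignin and cell death had an r with AT3G52900 from -0.21 to 0.91 (median 0.62), and with AT1G79620 from -0.13 to 0.81 (median 0.64). AT5G51890 was at the upper end for both, and IRX15-L had 0.53 with AT3G52900 and 0.37 with AT1G79620.

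The genes whose signals followed each gene most closely were sought among 2417 others with a time mean of at least 3 log2 units and time means spanning at least 1. For AT1G79620 the 10 highest Pearson's r over the 27 arrays, 0.885 to 0.921, belonged to AT1G67510, AT2G03200, AT5G07800, AT3G27200, AT5G38610, AT1G10810, AT5G26330, AT3G47400, TBL40 (AT2G31110) and AT5G24510, and AT3G52900 came 11th. For AT3G52900 they ran from 0.917 to 0.958 and belonged to AT1G70500, AT1G47410, AT3G06035, AT3G27200, AT5G38610, AT2G27740, AT5G26330, AT2G03200, AT1G23460 and AT5G07800, with AT1G79620 16th. The lists shared 5 genes. All 15 genes on either had their highest time mean at 60 h, as AT1G79620 and AT3G52900 did, a pattern that chose them in part. AT3G27200, which is on both lists, averaged 8.26 at 60 h against 0.80 at 0 h, and AT1G70500, first for AT3G52900, averaged 5.21 at 60 h against 0.13 at 0 h.

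For AT1G79620 the lowest r belonged to LCR68, a defensin-like gene (r = -0.886), SAMDC, an enzyme gene of polyamine synthesis (-0.873), and AT2G30930 (-0.824), and for AT3G52900 SAMDC (-0.872), AT3G10190 (-0.841) and CLE41, a peptide gene that keeps vascular stem cells from becoming xylem (-0.837). All 5 had their lowest time mean at 60 h and were called down there against 0 h, a pattern that chose them in part. None of the 5 was called at 60 h against 48 h (adjusted p = 0.236 for LCR68, 0.13 for SAMDC and 0.385 for AT2G30930). For CLE41 and AT3G10190 the 60 h mean lay close to that of 48 h (differences of -0.28 and -0.50, adjusted p = 0.866 and 0.679). In time-course A all but LCR68 were lowest at 96 h. LCR68 averaged 3.83 at 60 h against 10.54 at 0 h, and SAMDC 4.09 against 7.43.

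At 96 h the array of A read AT1G79620 at 2.78 and AT3G52900 at 3.48 log2 units above the higher of B and C, ranks 103 and 46 among 22743 probe sets, of which 226 or 0.994% exceeded the higher of both by 2 or more. Of the 15 genes most like the pair, which were chosen on these same arrays, 12 did so too, and all 15 were higher in A. Among all 22743 probe sets 7540 were higher in A than in both B and C. Of the 31 other measured genes on the lists 16 were higher in A than in both B and C at 96 h, and 5 by 2 or more. Of the 12 among them for wall polysaccharides, lignin and cell death these numbers were 9 and 4. Some of the highest also had a high r with AT3G52900 over arrays that include this one. AT5G51890 read 7.58 in A at 96 h, against 3.96 and 4.47 in B and C, AT4G18425 read 6.13 against 0.34 and 0.55, IRX15 read 3.43 against 1.28 and 1.23, and IRX10 read 2.73 against 1.52 and 1.14. The GAPDH difference of the 96 h arrays was 1.65 in A, 2.99 in B and 1.41 in C, and its part in the split was not tested.

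**Figure D5:**
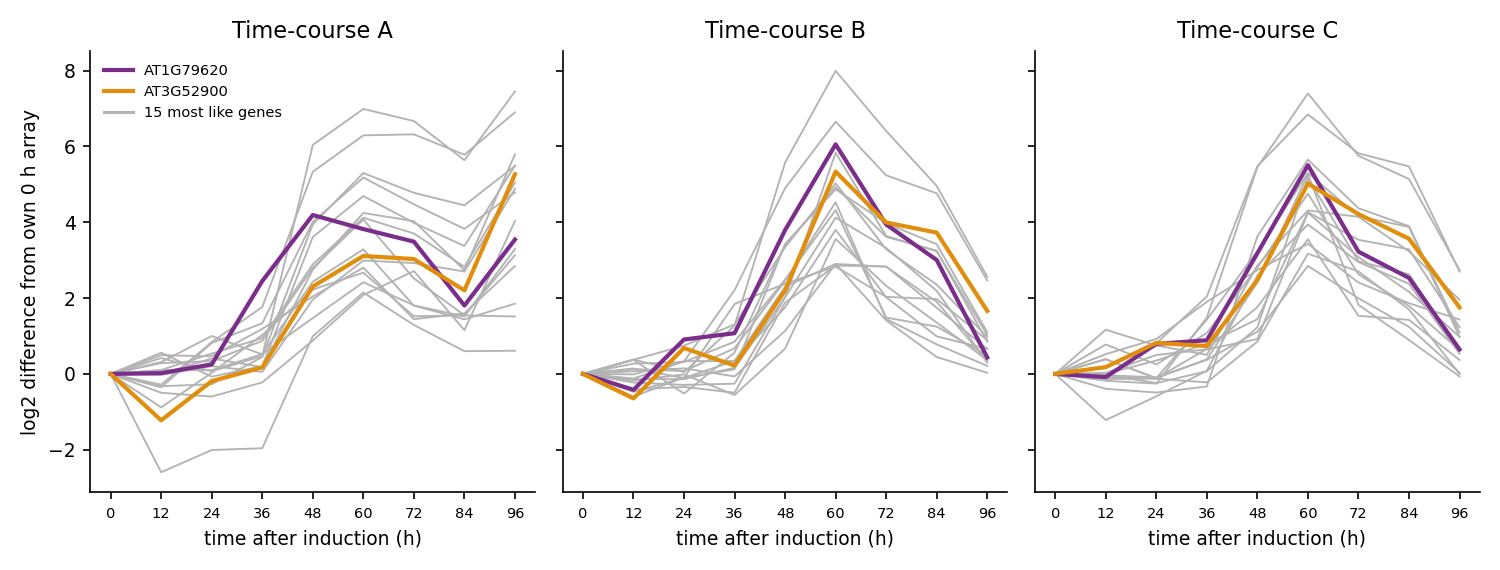
Log2 difference from the 0 h array of the same time-course (vertical) against time after induction in h, for AT1G79620, AT3G52900 and the 15 genes most like them (grey), in time-courses A, B and C. In B and C the lines are highest at 60 h and low again at 96 h. In A most are lower at 84 h than at 60 h and high again at 96 h.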

How the data were processed

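Affymetrix arrays carried biotin-labelled cRNA of 1 sample each, as the labels' protocols state. The deposited values are the authors' log2 signals after RMA, per the submitters' processing notes, and base 2 was taken from their range. Not given in the sources used here is the RMA version. The lowest value was exactly 0 in 272 to 978 probe sets of each array. Of 22810 probe sets, 3 that lacked a value on some array and 64 controls were dropped. Genes were named from the platform annotation, which lists 14016 probe sets, through the reference gene table of assembly TAIR10.1. For a gene with several probe sets the brightest stood.

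Time means were estimated jointly from the 27 arrays in limma 3.58.1 in R 4.3.3 (lmFit, contrasts.fit and eBayes with defaults), and the step was tested on simulated data. The difference between both genes was tested by exact permutation over arrays. The letters pair the arrays because the design text describes 3 separate time-courses. Once time means were removed, 108 pairs of arrays with a common letter correlated at a median of 0.246, and 216 pairs with neither letter nor time in common at -0.125. Named are both genes, all measured genes of the LRR VIII-1 and DUF662 lists, the 3 genes of each other list with the largest wall difference, and the 10 most and 3 least alike; THE1 and the examples given with values were singled out besides, and the split of 96 h arrays was described after its values were seen. Both genes and the 8 lists, with 101 genes, were chosen with earlier results of these data known. Promoter and protein sequences were not used here.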

Additional observations from a re-analysis of the deposited data

How the results depend on the processing

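Of the comparisons of AT1G79620 and AT3G52900, all kept their direction and their side of the threshold under centred arrays, quantile normalization, a filter on low values, trend and robust moderation, and the replicate block (2.75 for AT3G52900 in the wall against the pre-wall times, as without it). With array weights AT1G79620 was also called at 36 h (1.33), and AT3G52900 at 60 h against 48 h (2.08) and at 96 h against 60 h (-2.41). Fitting the 6 arrays of a comparison alone ended the calls of AT3G52900 at 96 h against 0 h (2.89) and of AT1G79620 at 96 h against 60 h (-3.59). With the GAPDH difference as a covariate the uncalled 12 h difference of AT1G79620 turned to 0.0875. Without time-course B, with fewer arrays, calls were lost for AT3G52900 at 48 h (2.39), 72 h (3.62), 84 h (2.88) and 96 h (3.51) against 0 h, and for AT1G79620 at 84 h against 0 h (2.17), at 96 h against 60 h (-2.57) and in the wall against the pre-wall times (1.44).

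Leaving out single arrays changed calls of AT3G52900 at 48 h (2.12 to 2.46) and 96 h (1.63 to 3.67) against 0 h, at 60 h against 48 h (1.61 to 2.78) and at 96 h against 60 h (-2.85 to -0.82), and of AT1G79620 at 36 h (1.01 to 1.73) and 84 h (2.17 to 2.80) against 0 h. The number of probe sets called at 60 h against 48 h was 3, from 0 with those 6 arrays alone to 420 without the 60 h array of A, and 63 with the block. At 96 h against 60 h it was 458, from 0 with 6 arrays alone to 1192 with array weights, in the wall against the pre-wall times 1433, from 416 without time-course B to 2802 with the block, and at 96 h against 0 h 1025, from 31 with 6 arrays alone to 1677 with the GAPDH covariate. At 60 h against 0 h it was 3008, from 973 to 3928. The DUF662 list had 1 gene called down at 60 h with the block, the low filter, array weights or the GAPDH covariate. With Spearman's rho, 4 and 5 of the 10 genes most like AT1G79620 and AT3G52900 stayed among the 10 highest. The number of arrays and the floor at 0 limit what can be seen.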
